A study of Rattus norvegicus with 6 samples.

Results

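miR-378a is a microRNA (miRNA) whose gene lies inside the protein-coding gene Ppargc1b, and its hairpin gives the mature forms rno-miR-378a-3p and rno-miR-378a-5p. A distinct read sequence, called a tag, was assigned to an arm when its first 18 bases equalled those of the mature sequence, and its reads were summed per arm and library. These are 2 of the 365 rat miRNA sequences found with at least 1 read in the 6 libraries, of which 167 had enough reads for the test across miRNAs.

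Ppargc1b encodes PGC-1β, a coactivator of genes for mitochondrial respiration and fat synthesis in liver. A miRNA hairpin is cut by Drosha and Dicer into a short duplex, of which 1 arm is usually kept in an Argonaute protein and pairs through its seed (bases 2 to 8) with messenger RNAs, while the other arm is mostly lost. miR-378a-3p is known to repress carnitine O-acetyltransferase, tied to energy use, and in liver the p110α subunit of PI3 kinase, which carries the insulin signal.

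Small RNA was read from liver of 3 male Wistar rats with nonalcoholic fatty liver disease (NAFLD) and 3 normal male Wistar rats, with 1 library per rat. The NAFLD rats were fasted for 48 h and then ate an 80% starch diet, and the normal rats ate a standard diet with 35% starch and were not described as fasted, both until day 7. The animals came from a study of 24 rats, and the labels give an age of 4 months where the methods give 28 weeks. NAFLD livers were picked for high triglyceride and normal livers at random, so the fast, the diet and the picking cannot be told apart here. No rat carried a genetic change that the labels name.

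The libraries held 11601058 to 11880695 clean reads. miRNAs took 75.7 to 79.2% of them in the NAFLD group and 85.7 to 91.3% in the normal group. In 3 libraries (NAFLD 2, NAFLD 3 and normal 2) the median substitution rate at read position 4 over the 50 most abundant miRNAs was 3.84 to 4.27%, and in the other 3 it was 0.0288 to 0.0639%. These are called the high-substitution and low-substitution libraries, and differences between the groups are also given within these sets. miR-122-5p, the defining hepatocyte miRNA, stood at 445063 to 465119 TPM (reads per 1000000 clean reads) in the NAFLD group and 560716 to 595583 TPM in the normal group.

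The mature sequences are shown because the seed decides which messages each arm can pair with. They come from RefSeq, build GRCr8, and capitals mark the seed. The 3p arm lies at chr18:57128925-57128945 and the 5p arm at chr18:57128962-57128983, both on the minus strand, and both tables place the gene within Ppargc1b on its strand.
rno-miR-378a-3p: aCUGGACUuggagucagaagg
rno-miR-378a-5p: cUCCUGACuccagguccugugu

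The seeds CUGGACU and UCCUGAC differ from each other, and 0 other mature rat miRNAs in the sequence table carry either. The longest unbroken Watson-Crick complement between the arms is 9 bases, bases 9 to 17 of the 3p arm. rno-miR-378b, named among the rat genes of RefSeq, is not in that table and was not checked.

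miR-378a-3p was an abundant liver miRNA, at rank 14 to 18 of the miRNAs in each library. Its exact reads numbered 15297, 9798 and 15722 in NAFLD 1, 2 and 3, and 9949, 5568 and 12704 in normal 1, 2 and 3. These are levels of 1319, 833.2 and 1331 TPM in the NAFLD group, and of 839.3, 469.1 and 1069 TPM in the normal group. The groups overlapped, since NAFLD 2 sat below normal 1 and normal 3. Normal 2 was the lowest of the 6. By exact starts, 2.99% of the 167 miRNAs had all NAFLD libraries above all normal ones.

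The mean level was 1161 ± 284 TPM in the NAFLD group and 793 ± 303 TPM in the normal group (SD, n = 3), a ratio of 1.46. A two-sided exact permutation test on the TPM gave p = 0.3, where 3 libraries against 3 cannot give a p below 0.1. edgeR's quasi-likelihood test gave a log2 fold change of 0.55 (SE 0.38), with a Benjamini-Hochberg adjusted p of 0.986 over 167 miRNAs. The difference was therefore not called by this test. It was the 7th highest fold change of the 167, where the median was 0.02. By the same test 0.599% of the miRNAs were called, which was miR-122-5p alone, lower in the NAFLD group with a log2 fold change of -0.35 and an adjusted p from edgeR of 0.000532.

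Many 3p reads in the high-substitution libraries missed the exact start by 1 base. Such reads added 51.0, 49.8 and 52.2% to the exact reads in NAFLD 2, NAFLD 3 and normal 2, but 3.83 to 4.20% in the others. Allowing 1 substitution in the first 18 bases gave 1370, 1258 and 1994 TPM in the NAFLD group, and 871, 714 and 1114 TPM in the normal group. Counted this way the groups did not overlap, with every NAFLD library above every normal one.

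The mean was then 1541 ± 396 TPM against 900 ± 202 TPM (SD, n = 3), a ratio of 1.71, with p = 0.1 by the exact permutation test, the smallest it can give. Of 173 miRNAs tested with 1 substitution allowed, 10.4% had all NAFLD libraries above all normal ones. edgeR gave a log2 fold change of 0.78 (SE 0.25) with an unadjusted p of 0.00747 and an adjusted p of 0.406. By this unadjusted p 5.78% of the 173 were higher in the NAFLD group, and by the adjusted p 0.578% were called in either direction. It was the third smallest p of these miRNAs. With up to 2 substitutions allowed, a choice made after the data were seen, the groups again did not overlap, where 12.4% of 177 miRNAs had all NAFLD libraries above all normal ones. The median log2 fold change of all 173 was 0.15.

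Within the low-substitution libraries NAFLD 1 exceeded the mean of normal 1 and 3 by 1.38 times, with and without the substitution. Within the high-substitution libraries the mean of NAFLD 2 and 3 exceeded normal 2 by 2.31 times with exact starts and by 2.28 times with 1 substitution. NAFLD was the higher in both sets. In an edgeR fit that allowed 1 substitution and carried the set as a covariate, a pair of choices made after the data were seen, the log2 fold change was 0.83 (SE 0.21) and the adjusted p was 0.0127, with 4 of 181 miRNAs called. With the set as covariate and exact starts, edgeR gave 0.84 and an adjusted p of 0.104. The call on the 3p level thus depended on both choices.

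**Figure D1:**
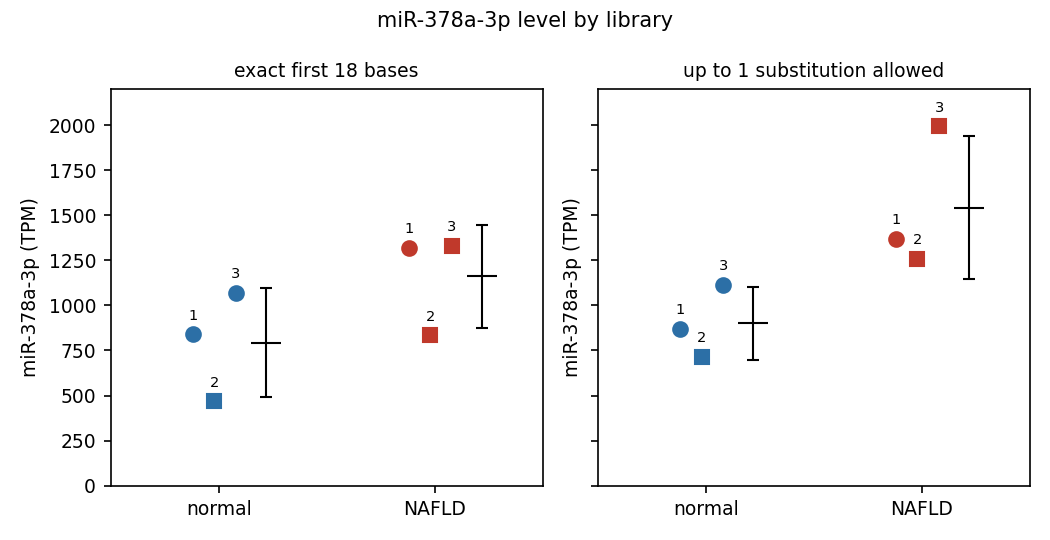
Level of miR-378a-3p in TPM (linear axis from 0) in each library, by exact 18-base start (left) and with 1 substitution allowed (right). Circles are low-substitution and squares high-substitution libraries, numbers are replicates, and bars are the mean ± SD (n = 3). The groups overlap on the left, and on the right the NAFLD libraries at 1258 to 1994 TPM lie above the normal ones at 714 to 1114 TPM.

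miR-378a-5p, the arm that is mostly lost, was rare. Its reads numbered 9, 7 and 9 in NAFLD 1, 2 and 3, and 8, 6 and 9 in normal 1, 2 and 3. These are 0.776, 0.595 and 0.762 TPM in the NAFLD group, and 0.675, 0.505 and 0.758 TPM in the normal group. The ranges of the groups overlapped almost wholly, and normal 2 was again the lowest library.

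The means were 0.711 ± 0.1004 and 0.646 ± 0.128 TPM (SD, n = 3), a log2 ratio of 0.14, with p = 0.5 by the exact permutation test. A count of 9 reads has a 95% Poisson interval of 4.12 to 17.1 reads, and 6 reads one of 2.20 to 13.1. No difference in the 5p arm was detected at this depth, and how large a difference could have been detected was not computed. The 5p arm did not pass edgeR's filter on low counts.

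The 3p arm outnumbered the 5p arm 1700, 1400 and 1747 times in NAFLD 1, 2 and 3, and 1244, 928 and 1412 times in normal 1, 2 and 3. The 5p arm made up 0.0572 to 0.108% of the reads of both arms, and the exact binomial 95% intervals reached from 0.0262 to 0.234%. This arm ratio does not depend on library size. It ranked 10th in size of 47 hairpins with both arms read, and at least 100 reads of both together, in every library. Hairpins with an arm at 0 in any library were left out of this rank. let-7g was 1 of these, with 50505 to 62181 reads of the 5p arm and 0 to 2 of the 3p arm. For miR-378a, NAFLD 2 sat just below normal 3.

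On the log2 scale the ratio was 10.65 ± 0.17 in the NAFLD group and 10.20 ± 0.31 in the normal group (SD, n = 3), a difference of 0.45 with p = 0.2 by the exact permutation test. It was 0.36 within the low-substitution set and 0.75 within the high set. With 1 substitution allowed the groups did not overlap, at 10.91 ± 0.24 against 10.37 ± 0.14, with p = 0.1 by the same exact test, the smallest possible. The difference was then 0.21 within the low set and 0.81 within the high set. By exact starts the groups did not overlap in 6.38% of the 47 hairpins, and with 1 substitution allowed 13.5% of 52 hairpins had all NAFLD libraries above all normal ones. When only tags identical to the mature sequences were counted, the difference turned to -0.09. With 6 to 9 reads of the 5p arm per library, the ratio carries the counting error of that arm.

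The 3′ end of miR-378a-3p was ragged, and the 21-base RefSeq form was not its most frequent form. miRNA 3′ ends vary where Drosha or Dicer cuts unevenly, where exonucleases trim, and where terminal nucleotidyl transferases add A or U. The 8 most frequent forms are shown because they carry 68.1 to 81.9% of the 3p reads. They are written as the tags were deposited, with T for U, and capitals mark bases beyond the RefSeq end.
3p + C: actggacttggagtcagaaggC
3p, RefSeq form: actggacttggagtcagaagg
3p + CA: actggacttggagtcagaaggCA
3p + CT: actggacttggagtcagaaggCT
3p + CTTT: actggacttggagtcagaaggCTTT
3p + CAT: actggacttggagtcagaaggCAT
3p + T: actggacttggagtcagaaggT
3p minus the last base: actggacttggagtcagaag

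The form ending in C held 18.9% of the 3p reads on average over the 6 libraries, and the RefSeq form held 16.5%. The forms ending in CA and CT followed at 9.48 and 9.44%. CTTT and CAT endings held 6.78 and 6.20%, and the last 2 forms under 4% each. The most frequent form was thus 1 base longer than the RefSeq form.

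The RefSeq form took 18.2, 16.01 and 13.4% of 3p reads in NAFLD 1, 2 and 3, and 19.9, 12.9 and 18.5% in normal 1, 2 and 3. The groups overlapped, with means of 15.8 ± 2.39% and 17.1 ± 3.71% (SD, n = 3) and p = 0.7 by the exact permutation test. Mean read length was 22.74, 23.01 and 23.26 nt in the NAFLD group and 22.45, 23.24 and 22.74 nt in the normal group. It also overlapped, with a difference of 0.20 nt and p = 0.5 by the exact test. The 3 high-substitution libraries had the lower mature shares and the longer reads, without overlap with the low set. Within the low set the differences were -1.05 points and 0.15 nt, and within the high set they were 1.80 points and -0.10 nt. The groups did not overlap in 14.6% of 82 miRNAs for the mature form and in 13.4% for length. These 82 are the miRNAs with at least 100 reads in every library. The high set lay wholly above the low set in length for 20 of the 82, and wholly below it in mature share for 6.

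Long reads were frequent in the 3p arm. Reads of 24 nt or more, at least 3 nt past the RefSeq end, made up 28.7, 34.9 and 40.5% of 3p reads in NAFLD 1, 2 and 3, and 20.8, 40.3 and 28.5% in normal 1, 2 and 3. Over the 6 libraries the mean was 32.3%, the second highest of the 82 miRNAs after miR-122-3p at 73.7%, where the median miRNA had 1.29% of reads at least 3 nt past its own RefSeq end. Counted from each miRNA's most frequent form (at least 2 nt longer), the 3p arm ranked 4th. The RefSeq end of the 3p arm was thus short of where most of its reads stopped.

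The group means of this share were 34.7 ± 5.91% and 29.9 ± 9.83% (SD, n = 3), with overlap and p = 0.4 by the exact permutation test. For this measure 15.9% of the 82 miRNAs had groups without overlap. The 3 high-substitution libraries lay above the 3 low-substitution ones, as they did for 28.05% of the 82 miRNAs. Within the low set NAFLD was higher by 4.01 percentage points, and within the high set it was lower by a difference of -2.62 points. Whether the set plays a part in read length was not tested.

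**Figure D2:**
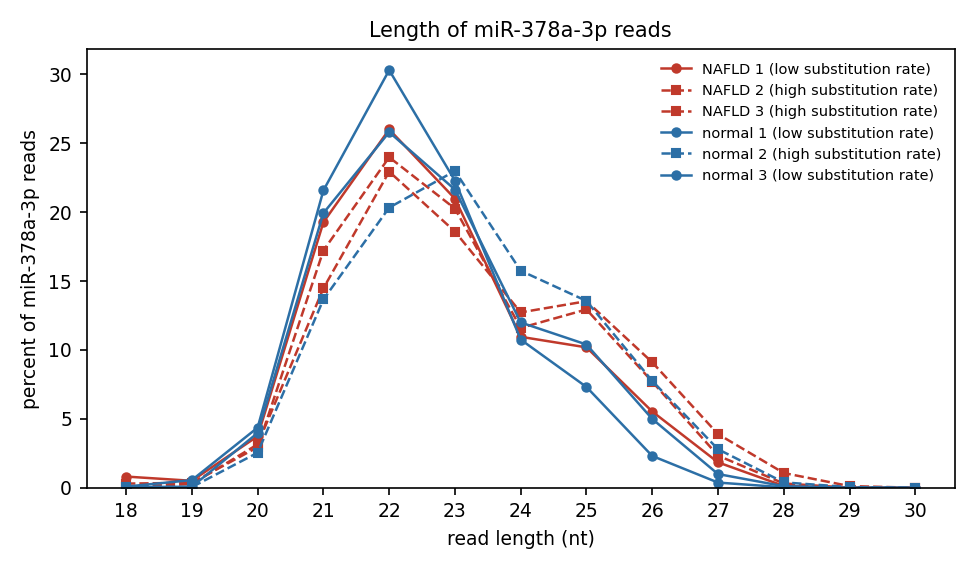
Length of miR-378a-3p reads in nt (horizontal axis) against percent of 3p reads (vertical axis), 1 line per library. Dashed lines with squares are high-substitution libraries. In normal 2 the most frequent length is 23 nt, at 22.99%, and in the other 5 libraries it is 22 nt, and reads of 25 nt take 7.32 to 13.6% over all 6.

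Base 22, the first past the RefSeq end, was C in 86.4 to 90.1% of reads that reached it, T in 7.19 to 9.44% and A in 2.12 to 4.05%. After a C at base 22, T and A made up nearly all further bases, with T at 67.4 to 74.5% and A at 24.3 to 31.3% of them. The sequence of the hairpin was not used here, so encoded and added bases cannot be told apart. Tails of T alone held 18.3 to 26.8% of all 3p reads, and tails of A alone 9.19 to 12.5%. In every library the tail of 3 T, at 4.54 to 8.05%, exceeded the tail of 2 T, at 2.80 to 3.72%.

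Base 23 separated the 6 libraries by group. Among reads of 23 nt or more with C at base 22, T at base 23 made up 57.4, 59.7 and 62.1% in NAFLD 1, 2 and 3, and 52.0, 55.9 and 53.8% in normal 1, 2 and 3. The groups did not overlap, at 59.7 ± 2.35% against 53.9 ± 1.94% (SD, n = 3), a difference of 5.81 points with p = 0.1 by the exact permutation test, the smallest it can give. The share of A at base 23 mirrored it, at 36.4 to 40.8% against 42.7 to 46.4%. These values rest on 3315 to 8742 reads per library.

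The difference in T at base 23 was 4.50 points within the low-substitution set and 4.98 points within the high set. The measure was chosen after the end forms were seen. For the share of T as the next base after the most frequent form, 7.5% of 40 miRNAs had all NAFLD libraries above all normal ones. The form ending in CA was lower in every NAFLD library than in any normal one, at 9.27, 8.50 and 7.77% of 3p reads in NAFLD 1, 2 and 3 and 10.2, 10.7 and 10.5% in normal 1, 2 and 3, with p = 0.1 by the exact test. The other 7 printed forms overlapped between the groups. Of 578 end forms with at least 2% of a miRNA's reads, 13.5% had groups without overlap, and 8.13% had all NAFLD libraries below all normal ones.

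A share of 3p reads began 1 base late. This form moves the seed to UGGACUU, which no other mature rat miRNA in the table carries, and is shown for that reason with its seed in capitals.
3p starting at base 2: cUGGACUUggagucagaagg

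As a percent of reads starting at base 1 or 2, it made up 9.84, 10.7 and 9.64% in NAFLD 1, 2 and 3, and 7.86, 8.86 and 8.09% in normal 1, 2 and 3. The groups did not overlap, at 10.1 ± 0.561% against 8.27 ± 0.521% (SD, n = 3), a difference of 1.79 points with p = 0.1 by the exact permutation test. For this measure 7.32% of the 82 miRNAs had all NAFLD libraries above all normal ones. The difference was 1.87 points within the low-substitution set and 1.32 within the high set. Over all libraries it was 1.40 points with 1 substitution allowed. This measure too was added after the data were seen. The mean over all libraries, 9.17%, ranked 7th of the 82 miRNAs, whose median was 0.131%.

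**Figure D3:**
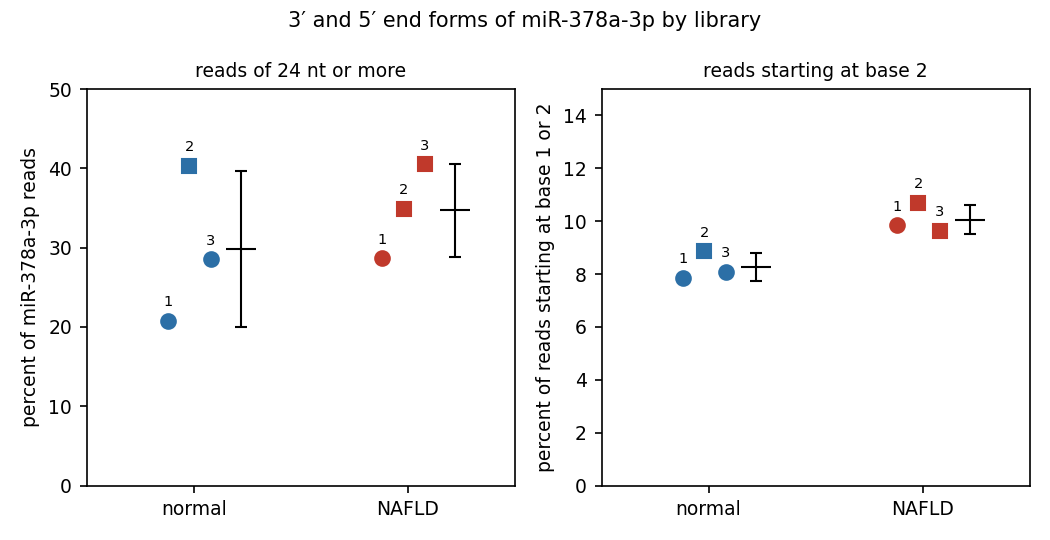
Percent of miR-378a-3p reads that are 24 nt or longer (left) and percent of reads starting at base 1 or 2 that start at base 2 (right), 1 point per library, with the mean ± SD (n = 3). Both axes are linear and start at 0. The groups overlap on the left, and on the right NAFLD at 9.64 to 10.7% lies above normal at 7.86 to 8.86%.

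The substitutions in 3p reads fell on few bases. Positions are counted from 1 at the 5′ end of the RefSeq sequence, with the RefSeq base first. Of 3p reads with at most 1 substitution in the first 18 bases, 3.76, 33.8 and 33.3% carried one in NAFLD 1, 2 and 3, and 3.69, 34.3 and 4.03% in normal 1, 2 and 3. The high set lay above the low set in 80 of the 82 miRNAs, so this division was not particular to miR-378a. The 3p mean of 18.8% ranked 22nd.

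A16C made up 16.6, 16.9 and 16.6% in NAFLD 2, NAFLD 3 and normal 2, and at most 0.0194% in the low set. T3G made up 6.25 to 6.31% and T3A 3.83 to 3.95% in the high set, and 0 to 0.00755% in the low set. A1C made up 2.23 to 2.83% in the high set. The same bases and the same sizes thus recurred in rats of both groups. Only A16G reached 1% in low-substitution libraries, at 1.38% in NAFLD 1, 1.63% in normal 1 and 2.09% in normal 3, against 0.985 to 2.47% in the high set.

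The share of C at base 16 in the high set depended on where the read began. In reads starting at base 1 it was 19.6 to 20.03%, and in reads starting at base 2 it was 4.64 to 5.05%. The substituted base was at read position 16 in the former and at read position 15 in the latter. The cause of the substitutions was not tested.

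**Figure D4:**
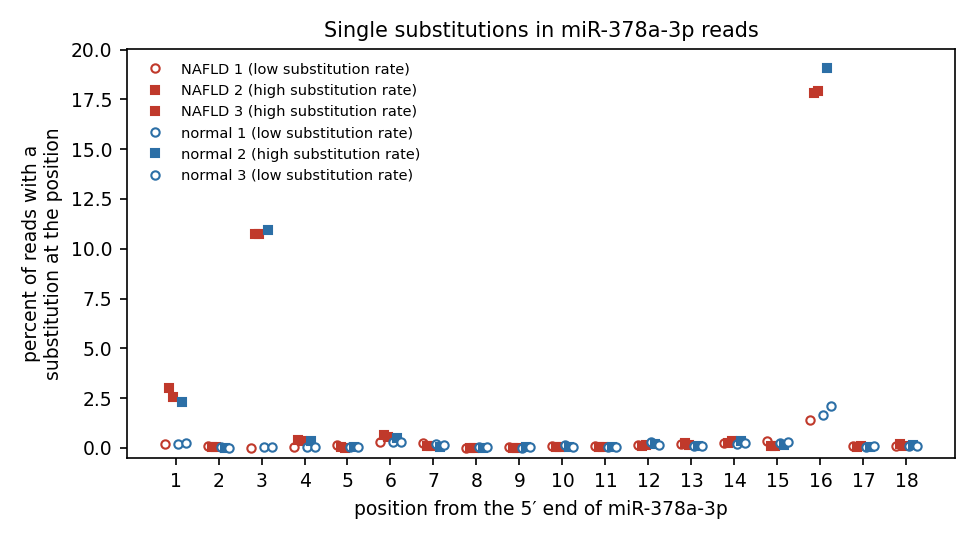
Percent of miR-378a-3p reads with a single substitution at each of the first 18 positions, counted from the 5′ end, for each library. Filled squares are high-substitution and open circles low-substitution libraries. The high-substitution libraries stand apart at positions 1, 3 and 16, and elsewhere all 6 lie near 0.

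**Figure D5:**
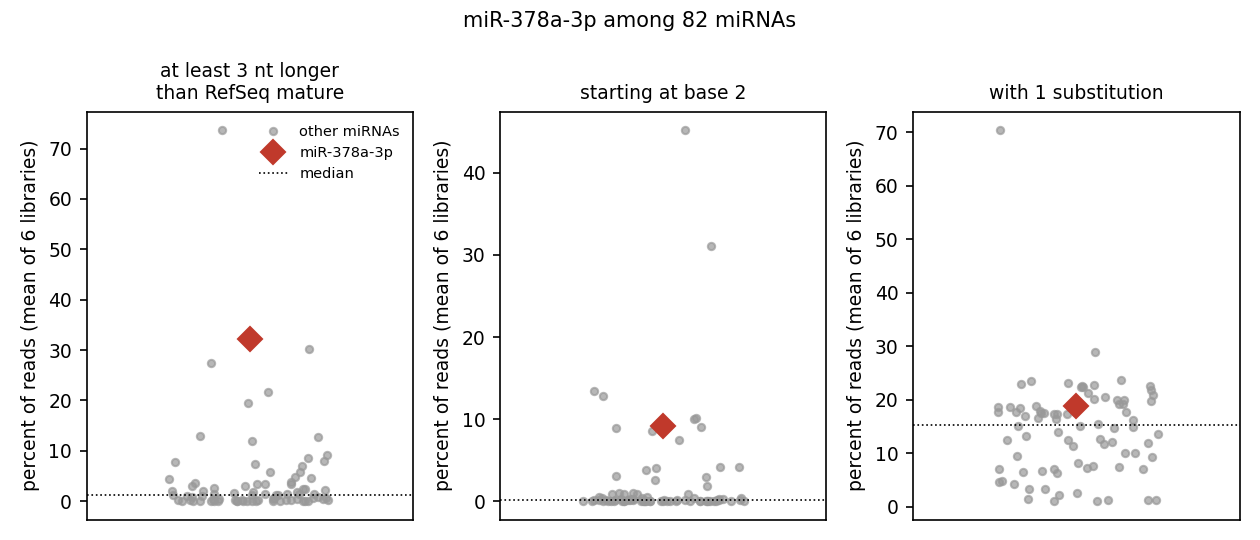
miR-378a-3p (diamond) among the 82 miRNAs with at least 100 reads in every library, as means over 6 libraries in percent of reads, for reads at least 3 nt past the RefSeq end, reads starting at base 2, and reads with 1 substitution. The dotted line is the median of the miRNAs. The 3p arm lies at 32.3%, 9.17% and 18.8%, against medians of 1.29%, 0.131% and 15.3%.

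Across the 6 libraries, the miRNAs of at least 100 TPM whose log2 TPM was most like that of miR-378a-3p were let-7d-5p (Pearson r 0.947), miR-199a-3p (0.927), the shared start of miR-103-3p and miR-107-3p (0.889), miR-25-3p (0.841) and miR-185-5p (0.807), of 36 candidates. For miR-378a-5p they were miR-378a-3p (0.957), miR-103-3p and miR-107-3p (0.945), miR-25-3p (0.917), miR-185-5p (0.900) and the shared start of miR-23a-3p and miR-23b-3p (0.882). The 5p pattern rests on 6 to 9 reads per library, whose Poisson intervals all overlapped. With 1 substitution allowed, miR-10a-5p came first for the 3p arm (0.954), and miR-25-3p and miR-185-5p left its list. For the 5p arm miR-10a-5p also came first (0.924) with 1 substitution allowed, and miR-378a-3p left its list, so the likeness of the arms to each other depended on the counting. These r are descriptions over 6 points that share library, depth and substitution set.

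miR-378a is also abundant in muscle, and a muscle list of 5 miRNA sequences summed to 42.4 to 68.0 TPM in the NAFLD group and 20.98 to 40.8 TPM in the normal group. miR-499-5p, encoded in Myh7b, made up most of it, at 41.4 to 56.6 against 19.5 to 37.5 TPM. The shared start of miR-133a-3p and miR-133b-3p stood at 0 to 0.0846 TPM and miR-208a-3p at 0 in all libraries. Both miR-1-3p, at 0.935 to 9.74 against 1.52 to 2.95 TPM, and miR-206-3p overlapped between the groups. miR-1b, which the list does not hold, was lower in the NAFLD group, at 6.21 to 13.5 against 15.2 to 37.5 TPM. The hepatocyte list of 4 summed to 474195 to 481459 TPM in the NAFLD group and 582999 to 621798 TPM in the normal group. That sum was almost all miR-122-5p, and the other 3 (miR-192-5p, miR-194-5p and miR-148a-3p) overlapped between the groups, with log2 fold changes of 0.04, -0.04 and -0.38 and an adjusted p of 0.986 each by edgeR. In the muscle list miR-499-5p also had an adjusted p of 0.986 by edgeR, so miR-122-5p was the only member of both lists that passed the test. The part of these levels in the 3p level was not tested.

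Blood and immune miRNAs (6, of which miR-150-5p was at 0) summed to 31.2 to 78.0 TPM against 35.04 to 55.8 TPM. Endothelial ones (2) summed to 23.5 to 48.4 against 14.7 to 41.1 TPM, and stellate and smooth muscle ones (4) to 133 to 227 against 131 to 282 TPM. Biliary ones (5, of which 3 were at 0) summed to 0.765 to 2.03 against 1.77 to 2.95 TPM. These 4 sums overlapped between the groups. miR-199a-3p, which the stellate list does not hold, stood at 400 to 439 TPM in the NAFLD group and 210 to 384 TPM in the normal group. Its log2 fold change was 0.51, with an adjusted p of 0.986 by edgeR. By exact starts 2.99% of the 167 miRNAs had all NAFLD libraries above all normal ones. In whole liver, fewer cells of a type and less of a miRNA per cell cannot be told apart.

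Other miRNAs that lie in introns of protein-coding genes were read in 52 sequences, of which 32 were tested. Some of these can also come from genes outside the list. miR-23b-3p and miR-27b-3p share their starts with miR-23a-3p and miR-27a-3p, and miR-30c-5p is an arm of the hairpins of both miR-30c-1-3p and miR-30c-2-3p. By edgeR 0 of the 32 passed the adjusted threshold in either direction, and 0 had an unadjusted p under 0.05, beside 1 and 3 of all 167, each lower in the NAFLD group. Their median log2 fold change was 0.01, beside 0.02 over all 167 miRNAs. With 1 substitution allowed, 3 of the 32 had an unadjusted p under 0.05 and were higher, beside 10 of 173, and the medians were 0.12 and 0.15. DESeq2 and limma, run on all 167 miRNAs, called miR-1b and miR-122-5p, neither of them on this list.

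The 3 most abundant of the list were miR-101b-3p (Rcl1), miR-140-3p (Wwp2) and the shared start of miR-103-3p (Pank2, Pank3) and miR-107-3p (Pank1, pantothenate kinase genes). miR-101b-3p had 2448 ± 385 TPM in the NAFLD group and 3045 ± 450 TPM in the normal group (SD, n = 3), a log2 fold change of -0.32. miR-140-3p had 1857 ± 659 against 1279 ± 579 TPM, a log2 fold change of 0.54, close to the 0.55 of miR-378a-3p. miR-103-3p and miR-107-3p had 1618 ± 295 against 1468 ± 457 TPM, a log2 fold change of 0.14. Each had an adjusted p of 0.986 by edgeR, so none of these differences passed the threshold.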

How the data were processed

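Small RNA of 18 to 30 nt from 6 rat livers was sequenced. The authors removed low-quality, adaptor-less, poly A and short reads and deposited the counts of reads of each tag, not normalized and not filtered for a genome match; their sum equalled the deposited log's clean reads. TPM was reads per 1000000 clean reads.

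Tags were assigned by their first 18 bases to 675 starts of RefSeq mature miRNAs (693 names, 7 under 18 nt left out; miRNAs with the same start share 1 sequence). edgeR 4.0.16 in R 4.3.3 (glmQLFit, glmQLFTest, filterByExpr, library size equal to clean reads, no TMM factors, Benjamini-Hochberg, threshold 0.05) was the main test across miRNAs; its standard error is the absolute log2 fold change over the square root of F. As other tools, limma 3.58.1 on log2(TPM + 1) and DESeq2 1.42.0 were run. Two-sided exact permutation tests used numpy 2.4.6, and the Poisson and binomial intervals scipy 1.17.1, with pandas 2.3.3 under Python 3.11.15. Where only 1 miRNA was within reach, 1 substitution was allowed as an alternative. The largest gap in substitution rate split the libraries into the high and low sets. The 95% Poisson and exact binomial intervals hold counting error alone, as PCR copies are not separate molecules.

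The planned share of 3′ ends not matching the hairpin was replaced by the share of reads at least 3 nt past the RefSeq end. Named miRNAs were both arms, those sharing a seed, the 5 most like each arm among those of at least 100 TPM, and, of the intron-encoded list, the 3 most abundant and any past the threshold; named end forms had at least 2% of reads in a library, at most 8. The 5p arm's end forms are given apart. Members and lists were chosen with earlier results of these data known. The test was checked on simulated counts for the 167 miRNAs, 80 of them changed: 157 passed the filter, 71 of these changed, and 43 were recovered (33 at log2 2 and 10 at log2 1), with 4 false calls. Same-numbered NAFLD and normal libraries had deviations correlating at 0.08, 0.19 and -0.50, and differently numbered ones at -0.36 to 0.32. With 3 libraries per group these values cannot settle whether the numbers pair the rats, and the main tests did not pair them. Libraries of a group differed far beyond counting noise (chi-square per degree of freedom of 107 or more) and all 6 were kept.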

Additional observations from a re-analysis of the deposited data

How the results depend on the processing

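The direction of the miR-378a-3p level held under all 20 alternatives, with log2 fold changes from 0.28 (without normal 2) to 0.83 (without normal 3) on leaving out 1 library, and 0.37 with only the mature form. It passed the threshold under 1 of them, with 1 substitution and the substitution set as covariate (0.83). The adjusted p from edgeR was 0.629 with TMM, 0.858 with miRNA reads as library size, 0.145 with up to 2 substitutions and 0.559 by DESeq2. Library size by miRNA reads moved the median of all miRNAs from 0.02 to 0.20 and miR-378a-3p to 0.74, and over all 18-base starts the median was 1.11.

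The number of miRNAs called was 1, and 1 to 2 on leaving out 1 library, with miR-184 added without NAFLD 1. It was 0 with TMM, 0 with miRNA reads as library size, 0 with up to 2 substitutions and 0 over all 18-base starts, where 12, 6, 19 and 998 had an unadjusted p under 0.05, and 4 with 1 substitution and the set as covariate (miR-122-5p, miR-132-3p, miR-378a-3p and miR-144-3p). The call of DESeq2 was miR-1b and not miR-122-5p. The cause of these changes was not tested.

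The arm ratio difference ranged from 0.28 to 0.58 on leaving out 1 library and reversed to -0.094 with only mature forms, which left 2 to 6 reads of the 5p arm. The mature share difference ranged from -3.36 to 0.14 points, reversing without normal 1, and was 1.80 within the high-substitution set. The mean length difference was 0.02 to 0.41 nt, and -0.10 within the high set. The share of long reads differed by 0.28 (without normal 1) to 10.03 points (without normal 2), and by -2.62 within the high set. On leaving out 1 library, T at base 23 ranged from 4.62 to 6.97 points and starts at base 2 from 1.47 to 2.09. With 1 substitution allowed these differences were 5.87 and 1.40 points. The 5p differences kept their direction, and edgeR without a filter gave the 5p arm 0.14. Other fits gave the 5p arm no value since it failed the filter, except the one with 1 substitution and the set (0.31).

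With a replicate block, edgeR gave the 3p level 0.60 with an adjusted p of 0.764, and 1 call. For the other measures the mean of paired differences equals the difference of group means, so pairing could not change their direction. Depth limits the 5p arm, at 6 to 9 reads per library, and 3 rats per group limit every test.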

Other observations

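The few 5p reads also varied at their ends. The RefSeq form of miR-378a-5p made up 5 of 9, 4 of 7 and 6 of 9 reads in NAFLD 1, 2 and 3, and 2 of 8, 3 of 6 and 6 of 9 in normal 1, 2 and 3. The next form, longer by AT, had 0 to 2 reads per library. Reads of the 5p arm that began at base 2 numbered 7 in NAFLD 2, as many as its reads from base 1, and 1 in NAFLD 1, 2 in NAFLD 3, 2 in normal 1, 0 in normal 2 and 2 in normal 3.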
